A study of Mus musculus with 9 samples.

Results

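The genes described here are 7 mouse genes of fetal growth programmes, namely the RNA-binding protein genes Igf2bp1, Igf2bp2 and Igf2bp3, the let-7 inhibitor genes Lin28a and Lin28b, and the chromatin protein genes Hmga1 and Hmga2. They were chosen by symbol from the 47729 genes of the count table, with their levels in these cultures known, so their levels and fold changes are a description and carry no test. RNA was sequenced from 9 cultures of cells from the mouse subventricular zone, a germinal layer that keeps neural stem cells into adult life, and cultures were kept for up to 10 passages. NF1 cultures (1, 2 and 3) are tumour cells derived from neural stem cells with the genotype shp53, Nf1-/-, CDK4. LTR cultures (1, 2 and 3) are tumour cells derived from neural stem cells with the genotype lgT/Ras. NSC cultures (1, 3 and 5) are primary wild-type neural stem cells, and they serve as the control of both tumour groups. Cultures of a group are called independent but are told apart only by number, so whether tumour lines were transformed separately is not given, and the p-values below measure only the spread between these cultures.

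As background, the let-7 microRNAs accumulate as cells leave the fetal state and repress mRNAs that carry matching sites in their 3′ untranslated regions (3′ UTRs), among them those of Hmga2, the Lin28 genes and the Igf2bp genes. LIN28 proteins bind the let-7 precursors and block their maturation, so that LIN28 and let-7 hold each other in check. The IGF2BP proteins bind mRNAs and affect their stability, transport and translation. HMGA proteins bind the minor groove of AT-rich DNA through AT-hooks and alter chromatin architecture. HMGA2 sustains the self-renewal of young neural stem cells in the mouse, and most of these genes are largely silent in adult tissues and often active again in tumours.

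The let-7 sequences are shown because their seed (bases 2 to 8, in capitals) is what pairs with the 3′ UTRs of these mRNAs. RefSeq (GRCm38.p6) lists 9 mature let-7 and miR-98 names from 11 loci, and all share 1 seed. They differ outside it, as 3 of them show.
mmu-let-7a-5p: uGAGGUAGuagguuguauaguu
mmu-let-7b-5p: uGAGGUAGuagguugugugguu
mmu-miR-98-5p: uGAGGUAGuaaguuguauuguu

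The complement of the seed, CTACCTC, was searched on the sense strand of 1 annotated 3′ UTR per protein-coding gene (GENCODE M21, GRCm38). All 7 of the genes held at least 1 match, with 17 matches in total, of which 9 were followed by an A. Of all 20709 mouse 3′ UTRs searched, 1690 (8.16%) held a match. Hmga2, Lin28b and Igf2bp1 had 4 matches each, Lin28a had 2, and Hmga1, Igf2bp2 and Igf2bp3 had 1 each. Long 3′ UTRs hold more matches. Of the 3′ UTRs of like length, with the gene itself counted among them, 0.0911% had at least as many as Hmga2. The shares were 0.336% for Lin28b, 0.394% for Igf2bp1, 1.98% for Lin28a, 8.05% for Hmga1, 11.6% for Igf2bp2 and 12.8% for Igf2bp3. The first match of each gene is printed with its upstream bases, the match in capitals.
Hmga2, chr10:120364224-120364245, minus strand: ccgacattcaatttCTACCTCa
Hmga1, chr17:27563278-27563299, plus strand: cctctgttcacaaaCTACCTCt
Lin28b, chr10:45381022-45381043, minus strand: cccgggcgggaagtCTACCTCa
Lin28a, chr4:134005189-134005210, minus strand: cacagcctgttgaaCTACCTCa
Igf2bp1, chr11:95961778-95961799, minus strand: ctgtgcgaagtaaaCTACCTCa
Igf2bp2, chr16:22059473-22059494, minus strand: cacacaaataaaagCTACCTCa
Igf2bp3, chr6:49086787-49086808, minus strand: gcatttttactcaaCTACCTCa
The first matches of Hmga2 and Lin28b lay 21 and 36 bases into the 3′ UTR, and those of the other genes between 548 and 1715 bases into it. A match describes the letters only, and mature let-7 was not measured in these libraries.

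**Figure D1:**
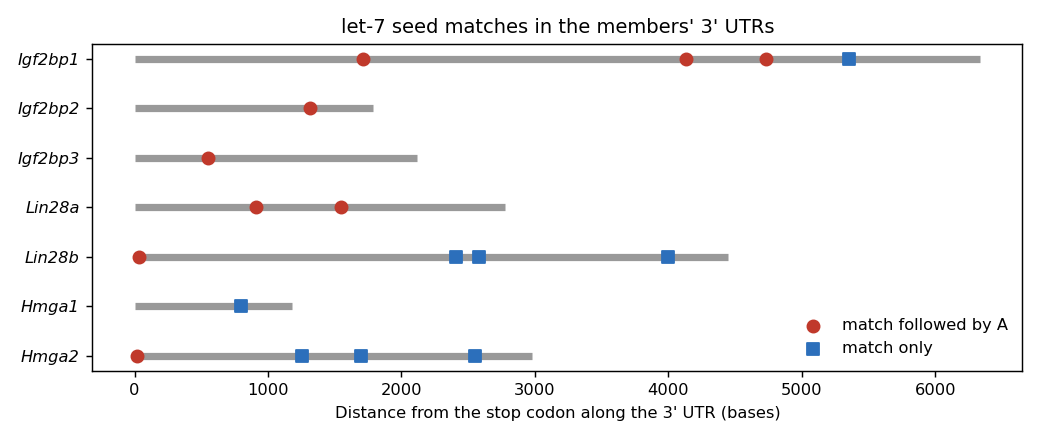
Matches to the let-7 seed complement along the annotated 3′ UTR of each gene. The horizontal axis is the distance in bases from the stop codon, each grey bar is 1 3′ UTR, red circles are matches followed by an A and blue squares are the other matches. Hmga2 and Lin28b carry a match close to the stop codon, and Igf2bp1 carries 4 spread over the longest of the 7 3′ UTRs.

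Total counts ran from 28600479 (LTR 2) to 57231024 (NSC 3), and a floor of 3 counts lay between 0.0541 and 0.114 CPM (counts scaled to library size by TMM factors). Of the genes that the labels name, Nf1 had 40.1 to 97.1 CPM in NF1, 40.3 to 80.0 in LTR and 82.4 to 114 in NSC, and Cdk4 had 393 to 1123, 935 to 1020 and 325 to 455 CPM in the same groups. Trp53, the target named by shp53, had 151 to 221 CPM in NF1, 223 to 281 in LTR and 101 to 114 in NSC, so its mRNA was not below the NSC level in the libraries labelled NF1. The neural stem cell genes Vim, Nes and Sox2 were present in every library, whereas Slc1a3, a glutamate transporter gene that also defines these cells, was at most 4.77 CPM in both tumour groups. The summed level of the 12 neural stem cell markers was 11224 to 13575 CPM in NF1, 6840 to 12694 in LTR and 13758 to 14590 in NSC. Most of each tumour sum was Vim, with 10031 to 10703 CPM in NF1, 6070 to 11408 in LTR and 6131 to 7436 in NSC. Of the 12, 0 were called higher and 6 lower in NF1 (all fitted genes: 10.1% and 13.1%). In LTR 1 was called higher and 7 lower (14.9% and 20.9%). With 1 library left out, 4 to 9 were lower in NF1 and 7 to 10 in LTR, and 0 to 1 higher in each. Of 9 microglia and myeloid markers, 8 stayed under 1 CPM in both tumour groups, with 5 at 0 in each. The ninth, Cd68, had 3.91, 22.0 and 4.47 CPM in NF1 1, 2 and 3, against 1.85, 1.44 and 2.68 CPM in NSC 1, 3 and 5, and was called higher in NF1 (edgeR adjusted p = 0.0342), a call that was lost without any 1 of the NSC libraries. Pluripotent and germ cell markers summed to at most 0.416 CPM in NF1, 0.0895 in LTR and 1.18 in NSC, and Zfp42 and Dppa4 were at 0 in every library. NF1 2 stood apart from NF1 1 and NF1 3 on the first principal component (21.2, against -85.1 and -109, with NSC at 136 to 150). The 8 mural cell and fibroblast markers summed to 6.96 to 49.3 CPM in NF1 and 4.45 to 10.49 in LTR, against 1583, 233 and 1983 CPM in NSC 1, 3 and 5, and 5 of 5 fitted were called lower in both tumour groups. The 8 neuronal markers summed to 19.9 to 52.8 CPM in NF1, 24.8 to 75.7 in LTR and 311 to 472 in NSC, with 5 of 7 fitted called lower in NF1 (1 without NF1 1, and 2 without NF1 3, NSC 1 or NSC 5) and 6 of 7 in LTR. The 7 endothelial markers summed to 24.5 to 163 CPM in NF1, with NF1 2 the highest, 29.3 to 39.0 in LTR and 6.48 to 8.35 in NSC. Most of each tumour sum was Flt1, with 42.6, 155 and 23.3 CPM in NF1 1, 2 and 3 and 28.3 to 35.9 in LTR. Pecam1 was at most 0.269 CPM in the tumour libraries, and Cldn5 was at 0 in every library. Of 4 endothelial markers fitted, 2 were called higher in each tumour group (1 in NF1 without NSC 1, and 1 in LTR without LTR 3 or NSC 1), namely Flt1, with 73.7 ± 71.3 CPM in NF1, 31.6 ± 3.88 in LTR and 4.41 ± 2.14 in NSC, and Cdh5, with 1.49 ± 0.465, 0.978 ± 0.333 and 0.152 ± 0.148 CPM. The others fitted, Kdr and Tek, were not called in either group. These marker sums differ between tumour and NSC cultures as the genes below do, and their part in those results was not tested. Per the column headers, NSC libraries carry one lane name and tumour libraries a different one, so in the comparisons with NSC the lane cannot be told apart from the group.

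Of the 7 genes, Igf2bp2, Igf2bp3, Hmga1 and Hmga2 had enough counts to be fitted, while Igf2bp1, Lin28a and Lin28b did not. Igf2bp2 and Hmga2 were higher in both tumour groups than in NSC, Igf2bp3 was nearly absent from NF1 but not from LTR, and Hmga1 was high in every tumour library and in 1 NSC library. In the fit over all genes, 2 of the 4 were called higher and 1 lower in NF1 against NSC, where 10.1% of all 15696 fitted genes were called higher and 13.1% lower. In LTR against NSC 2 of the 4 were called higher and 0 lower, where the shares were 14.9% and 20.9%. In NF1 against LTR 0 of the 4 were called by edgeR, as were 0% of all fitted genes (1596 at an unadjusted p under 0.05, and 335 by DESeq2 and 1 by limma-voom after adjustment). In NF1 against NSC the ranges of NF1 and NSC did not overlap for 3 of the 4, 2 of them higher and 1 lower (42.4% of all fitted genes, 18.7% higher and 23.7% lower). In LTR against NSC they did not overlap for 3 of the 4, all higher (59% of all fitted genes, 26.9% higher and 32% lower), and in NF1 against LTR for 1 of the 4, which was lower (12.5%, 7.22% higher and 5.24% lower). The genes were chosen on these contrasts, so nothing is read from these numbers. The median log2 fold change of all fitted genes was 0.0039, -0.062 and 0.056 in the 3 comparisons in this order.

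**Figure D2:**
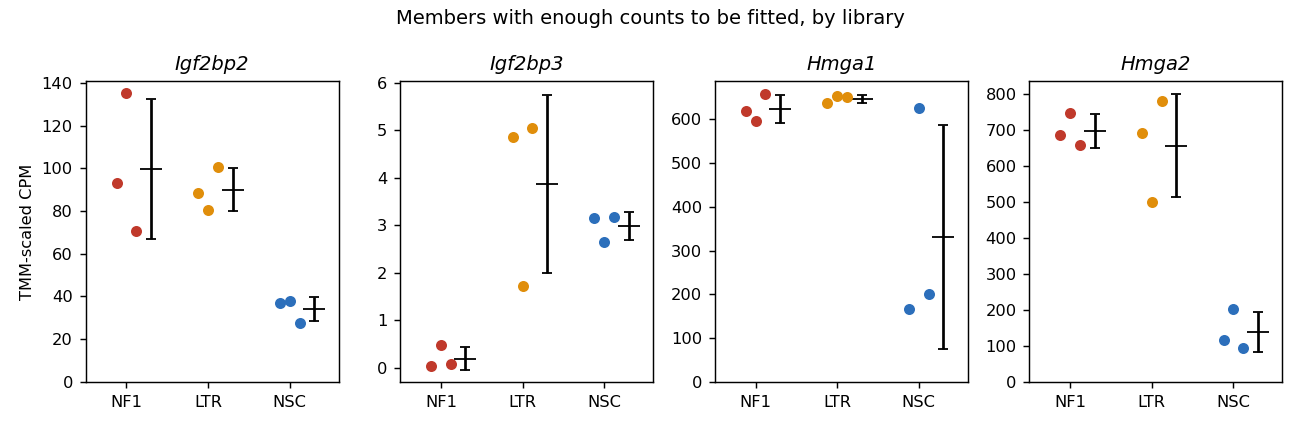
Levels of the 4 genes with enough counts to be fitted. The vertical axis is TMM-scaled CPM on a linear scale with its own range in each panel, each point is 1 culture, and the black marks beside the points are the mean ± SD of 3 cultures. Igf2bp2 and Hmga2 lie above the NSC cultures in all 6 tumour cultures, Igf2bp3 lies below 0.5 CPM in NF1 only, and 1 NSC culture reaches the tumour level of Hmga1.

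Per kilobase of exon, the order of the levels was Hmga1, Hmga2, Igf2bp2 and Igf2bp3 in each of the 3 groups. Hmga1 averaged 294, 304 and 156 CPM per kb in NF1, LTR and NSC, Hmga2 103, 97.0 and 20.5, Igf2bp2 13.5, 12.2 and 4.60, and Igf2bp3 0.0236, 0.475 and 0.366. The lowest library of each of these genes lay above the highest library of the next in every group, so these neighbours did not overlap. The 3 rarest genes stayed under 0.08 CPM per kb in every library, with Lin28b next in the tumour groups and Igf2bp1 next in NSC. Their libraries overlapped in both tumour groups, so no order is read among them there.

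Among the Igf2bp genes, Igf2bp2 was the abundant one in every culture. Igf2bp2 (ENSMUSG00000033581, GRCm38 chr16:22059009-22163299, minus strand) encodes the family member that persists in adult tissues. It had 93.3, 135 and 70.8 CPM in NF1 1, 2 and 3, against 36.7, 37.8 and 27.6 CPM in NSC 1, 3 and 5. In LTR 1, 2 and 3 it had 88.7, 80.6 and 101 CPM. Every tumour library lay above every NSC library, and NF1 2 was the highest of all 9. The means were 99.9 ± 32.8 CPM in NF1, 90.0 ± 10.0 in LTR and 34.0 ± 5.63 in NSC (SD, n = 3 each). The log2 fold change was 1.55 ± 0.26 (SE) in NF1 against NSC and 1.40 ± 0.26 in LTR against NSC, and both comparisons use the same NSC libraries. Between NF1 and LTR it was 0.15 ± 0.25, and the libraries of these groups overlapped. Without NF1 2 the NF1 mean was 82.0 CPM.

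Among the 4 fitted genes, only Igf2bp3 had NF1 and LTR libraries that did not overlap, and edgeR did not call that difference. Of all fitted genes, 12.5% did not overlap between these groups. Igf2bp3 (ENSMUSG00000029814, chr6:49085223-49214957, minus strand) encodes a fetal mRNA-binding protein that is best known for its return in tumours. It had 0.0290, 0.480 and 0.0682 CPM in NF1 1, 2 and 3 (1, 15 and 2 counts), against 4.86, 1.72 and 5.04 CPM in LTR 1, 2 and 3 (164, 45 and 169 counts). In NSC 1, 3 and 5 it had 3.15, 2.65 and 3.16 CPM. All NF1 libraries lay below all LTR and NSC libraries, whereas LTR lay on both sides of NSC, with LTR 2 below and the others above. The log2 fold change was -3.94 ± 0.88 in NF1 against NSC, -4.31 ± 0.89 in NF1 against LTR and 0.38 ± 0.75 in LTR against NSC. NF1 2 held 15 of the 18 NF1 counts, and without it the log2 fold change was -5.87 against NSC and -6.25 against LTR. Exons of Malsu1, a mitochondrial ribosome assembly gene on the opposite strand, overlap Igf2bp3 at its 3′ end. The strand setting of the counting is not given, so reads of the overlap cannot be assigned, and Malsu1 itself had 26.2 ± 14.6 CPM in NF1, 33.9 ± 19.9 in LTR and 19 ± 4.4 in NSC.

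Igf2bp1 (ENSMUSG00000013415, chr11:95957163-96005940, minus strand), which encodes the fetal zipcode-binding protein that binds Actb and Myc mRNAs, was near the detection limit everywhere. It had 0, 0 and 1 count in NF1 1, 2 and 3, against 24, 6 and 19 counts in NSC 1, 3 and 5. LTR 1, 2 and 3 had 0, 4 and 2 counts. On the CPM scale the NF1 libraries reached at most 0.0341 and the NSC libraries at least 0.108, so these groups did not overlap, while LTR 2 at 0.153 CPM lay above NSC 3. The ratio of summed counts per sequencing depth was 0.0280 in NF1 against NSC (95% counting interval 0.000695 to 0.164) and 0.171 in LTR against NSC (0.0599 to 0.400). These intervals cover counting error only. In bulk RNA, fewer cells of a kind and less RNA per cell cannot be told apart.

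Each gene's part in the summed level of the family depends on the level of Igf2bp2, which made up most of it. Per exon length, Igf2bp2 made up 99.7% to 99.97% of the Igf2bp signal in NF1, 95.3% to 98.0% in LTR and 89.4% to 93.8% in NSC. Igf2bp3 made up 0.0282% to 0.320% in NF1, 1.89% to 4.74% in LTR and 5.97% to 9.30% in NSC. The lower share in LTR than in NSC goes with the higher Igf2bp2 level in LTR (90.0 CPM, against 34.0 in NSC), since Igf2bp3 itself averaged 3.87 CPM in LTR and 2.99 in NSC and its libraries overlapped. In NF1 both the share and the level of Igf2bp3 lay below those of LTR and NSC in every library.

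The Lin28 genes were close to undetected. Lin28a (ENSMUSG00000050966, chr4:134003330-134018841, minus strand), which encodes the pluripotency factor that recruits the uridylation of let-7 precursors, had 1 count in NF1 3 and 0 counts in the 8 other libraries. A count of 0 allowed levels of up to 0.0541 to 0.114 CPM. Lin28b (ENSMUSG00000063804, chr10:45376620-45486395, minus strand), whose protein blocks let-7 processing, had 0, 1 and 3 counts in NF1 1, 2 and 3, against 0, 3 and 0 counts in NSC 1, 3 and 5. In LTR 1, 2 and 3 it had 23, 0 and 12 counts, or 0.682, 0 and 0.358 CPM. LTR 1 and LTR 3 were thus the only libraries above 3 counts, and LTR 2 showed none. The ratio of summed counts per depth in LTR against NSC was 16.3 (95% counting interval 5.14 to 82.8), and in NF1 against NSC 1.83 (0.310 to 12.5). For Lin28b the interval of NF1 against NSC, from 4 and 3 summed counts, spans 1. No difference was thus seen, and so few counts could not show a small one.

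**Figure D3:**
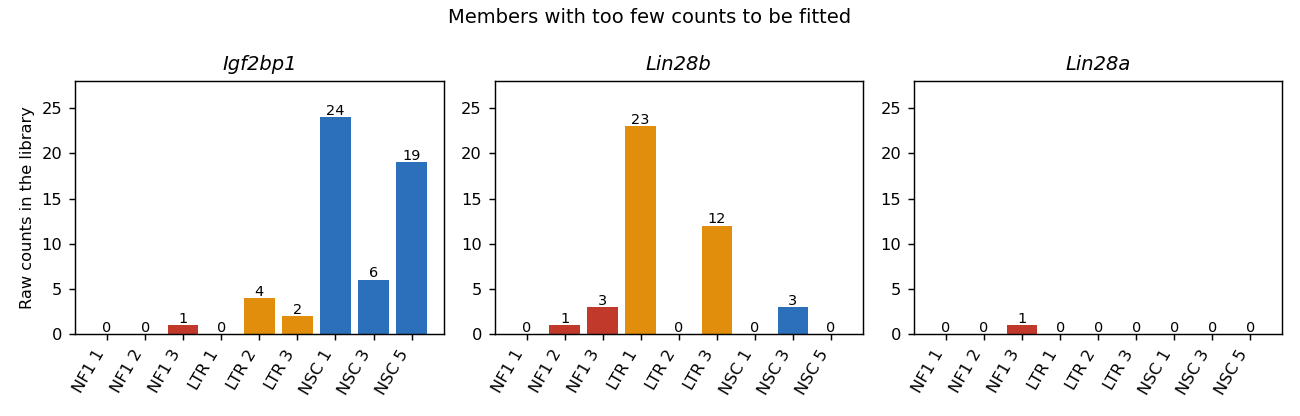
Raw counts of the 3 genes with too few counts to be fitted, by library. The vertical axis is the number of counts in the library on the same linear scale in each panel, and bars are single cultures (NF1 red, LTR orange, NSC blue). Igf2bp1 counts lie mostly in NSC, Lin28b counts in LTR 1 and LTR 3, and Lin28a has 1 count in all 9 libraries.

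Hmga2 showed the widest gap between tumour and NSC cultures among the abundant genes. Hmga2 (ENSMUSG00000056758, chr10:120361275-120476469, minus strand) encodes the AT-hook protein of fetal stem cells. It had 687, 748 and 657 CPM in NF1 1, 2 and 3, against 117, 203 and 95.5 CPM in NSC 1, 3 and 5. In LTR 1, 2 and 3 it had 691, 500 and 781 CPM. Every tumour library lay above every NSC library, with LTR 2 the lowest tumour library and NSC 3 the highest NSC library. The means were 697 ± 46.2 CPM in NF1, 657 ± 144 in LTR and 139 ± 56.8 in NSC (SD, n = 3 each). The log2 fold change was 2.33 ± 0.31 in NF1 against NSC, 2.24 ± 0.31 in LTR against NSC and 0.09 ± 0.29 in NF1 against LTR. Without NSC 3 it was 2.80 in NF1 and 2.75 in LTR against NSC. The antisense gene 1700006J14Rik overlaps exons of Hmga2 and had 1.2 ± 0.72 CPM in NF1, 1.10 ± 0.807 in LTR and 0.447 ± 0.137 in NSC, far below Hmga2 on the same scale.

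Hmga1 was equally high in the 6 tumour cultures and in NSC 3. Hmga1 (ENSMUSG00000046711, chr17:27556497-27563674, plus strand) encodes the AT-hook protein that is abundant in proliferating embryonic cells. It had 618, 596 and 658 CPM in NF1 1, 2 and 3, against 167, 625 and 200 CPM in NSC 1, 3 and 5. In LTR 1, 2 and 3 it had 637, 653 and 651 CPM. NSC 3 lay within the NF1 range and just below LTR, while NSC 1 and NSC 5 lay far below every tumour library. The log2 fold change was 0.92 ± 0.44 in NF1 against NSC and 0.97 ± 0.44 in LTR against NSC. Without NSC 3 it was 1.86 in NF1 and 1.94 in LTR against NSC, so NSC 3 decided the size of both values. Between NF1 and LTR it was -0.05 ± 0.43. How reads that fit more than 1 place in the genome were counted is not given, so the Hmga1 counts are uncertain. In 2 other chromatin genes, chosen after their values were seen, NSC 3 also stood above NSC 1 and NSC 5. Hmgn2, a nucleosome-binding protein gene, had 463 CPM in NSC 3 and 80.9 and 88.1 CPM in NSC 1 and NSC 5, and Hmgb1 had 310 CPM in NSC 3 and 136 and 145 CPM in NSC 1 and NSC 5. The part of cell makeup in the NSC 3 values was not tested.

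Across the 9 libraries, log2 CPM of Igf2bp2 and Hmga2 had a Pearson r of 0.953, Hmga1 and Hmga2 0.864, and Igf2bp2 and Hmga1 0.741. Igf2bp3 had r of -0.358 to Igf2bp2, -0.331 to Hmga1 and -0.415 to Hmga2. It was low in NF1 only, with means of 0.192 CPM in NF1, 3.87 in LTR and 2.99 in NSC, so it did not run opposite to them in LTR. The libraries fall into tumour and NSC clusters, so these values are a description with no test. The genes most like Hmga2 were Ube2q1 (r = 0.991), Acsl4 (0.991) and Nptx1 (0.990), and those most like Igf2bp2 were Adarb1 (0.986), Flt1 (0.983) and Mbnl3 (0.980). Those most like Hmga1 were Gdpd1 (0.983), Snai1 (0.963) and Stk38l (0.962), and Zic1 (0.964) and Zfp433 (0.942) were among those most like Igf2bp3.

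Genes around these 7 were examined in 8 lists, and here edgeR's quasi-likelihood test with Benjamini-Hochberg adjustment over all 15696 genes was used (threshold 0.05). The lists were chosen with earlier results of these data known. They share genes (Myc, Cdk6, Mycn, H19 and Plag1, among others, stand in 2 of them), so their counts do not add up, and the comparisons of NF1 and LTR share their NSC libraries. In NF1 against LTR, 0 genes of the lists were called by edgeR and 4 by DESeq2.

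Among the let-7 processing and effector genes, the calls in LTR were mostly lower, as were those over all fitted genes. Of 17 genes fitted, 0 rose and 1 fell in NF1 against NSC, and 1 rose and 5 fell in LTR against NSC. Of all fitted genes, 10.1% rose and 13.1% fell in NF1 and 14.9% rose and 20.9% fell in LTR. Tnrc6b, a scaffold of the silencing complex, fell to 40.9 ± 11.5 CPM in LTR, against 130 ± 9.32 in NSC (log2 fold change -1.67 ± 0.34, edgeR adjusted p = 0.00644), and to 51.5 ± 23.5 CPM in NF1 (-1.34 ± 0.33, 0.0207). Ago1 fell in LTR to 75.4 ± 14.3 CPM, against 161 ± 17.2 in NSC (-1.09 ± 0.28, edgeR adjusted p = 0.0170), and Ago4 to 1.31 ± 0.646 CPM, against 6.63 ± 1.46 (-2.34 ± 0.59, 0.0152). Both encode Argonaute proteins that carry the microRNA. Khsrp, which binds let-7 precursors, had 170 ± 25.9 CPM in NF1, 176 ± 5.08 in LTR and 217 ± 25.7 in NSC and was not called. The median log2 fold change of the list was -0.40 in NF1 and -0.51 in LTR against NSC. In NF1 the single call was lost without NF1 1, NSC 1 or NSC 5, and without NF1 2 the list had 1 gene higher and 7 lower. In LTR the 5 lower calls became 2 without LTR 2, 3 without LTR 3 or NSC 5 and 1 without NSC 1, and the single higher call was lost without LTR 2, LTR 3, NSC 1, NSC 3 or NSC 5 and became 2 without NF1 2 and 3 without NF1 3.

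Rows of the let-7 precursors gave little signal. Of the host genes, Huwe1 had 132 to 387 CPM over the 9 libraries, Wdr82 135 to 224 and Mir99ahg 1.22 to 3.88. Of 15 precursor and host genes found in the table, 3 were fitted and 0 were called by edgeR in either comparison with NSC. Rows of the precursors themselves reached at most 0.608 CPM, for Mirlet7b in NSC 1. Huwe1, a ubiquitin ligase gene that hosts let-7f-2 and miR-98, had 244 ± 113 CPM in NF1, 275 ± 114 in LTR and 308 ± 49.5 in NSC.

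Known let-7 target genes moved in both directions. Of 29 fitted, 5 rose and 9 fell in NF1 against NSC, and 6 rose and 12 fell in LTR against NSC, with medians of -0.15 and -0.29 on the log2 scale. The shares over all fitted genes were 10.1% higher and 13.1% lower in NF1, and 14.9% and 20.9% in LTR. Irs2, an insulin receptor adaptor gene, fell to 65.2 ± 12.1 CPM in NF1 and 71.2 ± 5.04 in LTR, against 261 ± 5.42 in NSC (log2 fold changes -2.0 ± 0.18 and -1.87 ± 0.18, edgeR adjusted p = 0.000516 and 0.000582). Fas, a death receptor gene, fell to 0.625 ± 0.401 CPM in NF1 and 0.478 ± 0.111 in LTR, against 21.5 ± 7.83 in NSC. Cdk6, a G1 kinase gene, fell to 15.1 ± 7.23 CPM in NF1 and 16.4 ± 1.95 in LTR, against 138 ± 55.9 in NSC. Mycn fell to 1.46 ± 0.975 CPM in NF1 and 0.326 ± 0.157 in LTR, against 18.9 ± 2.94 in NSC. Among those that rose, chosen after their values were seen, Nr6a1, an orphan nuclear receptor gene, had 5.55 CPM in NF1 and 4.67 in LTR, against 0.777 in NSC, and Arid3a had 6.05 and 4.40 CPM, against 1.52. Without NF1 1 or NSC 1 the number that rose in NF1 was 3.

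Client mRNAs of the IGF2BP proteins had calls in both directions, in NF1 at shares near those of all genes. Of 18 fitted, 2 rose and 3 fell in NF1 against NSC, and 2 rose and 6 fell in LTR against NSC, with medians of -0.21 and -0.49. All fitted genes gave 10.1% higher and 13.1% lower calls in NF1, and 14.9% and 20.9% in LTR. Myc, whose mRNA IGF2BP1 shields from decay, rose to 77.3 ± 23.7 CPM in NF1 and 102 ± 8.89 in LTR, against 36.5 ± 1.57 in NSC (log2 fold changes 1.08 ± 0.22 and 1.49 ± 0.23, edgeR adjusted p = 0.0100 and 0.00218). Lamb2, a laminin gene, fell to 34.0 ± 16.0 CPM in NF1 and 27.6 ± 2.84 in LTR, against 186 ± 50.5 in NSC. Actb, the classic zipcode mRNA, had 3317 ± 448 CPM in NF1, 3730 ± 459 in LTR and 4027 ± 163 in NSC and was not called. Without NF1 2 the number that fell in NF1 was 6, and without LTR 3 the number that fell in LTR was 3.

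Among protein partners of IGF2BP and genes of the m6A RNA mark, Fto and Ythdf3 were called. Of 16 fitted, 1 rose and 1 fell in NF1 against NSC, where 23.1% of all fitted genes were called, and 0 rose and 1 fell in LTR against NSC, where 35.9% were. Fto, an RNA demethylase gene, fell to 61.0 ± 14.7 CPM in NF1 and 61.7 ± 10.7 in LTR, against 110 ± 14.8 in NSC (log2 fold changes -0.86 ± 0.23 and -0.84 ± 0.23, edgeR adjusted p = 0.0261 and 0.0198). Ythdf3, an m6A reader gene, rose to 146 ± 9.17 CPM in NF1, against 92.4 ± 2.41 in NSC (0.65 ± 0.21, edgeR adjusted p = 0.0465). Pabpc1, the poly(A)-binding protein gene, had 1365 ± 143 CPM in NF1, 1557 ± 146 in LTR and 1176 ± 322 in NSC. The single calls depended on single libraries and on the processing. Of 19 alternatives, Ythdf3 was not called in NF1 in 11, and Fto was not called in 7 in NF1 and in 5 in LTR. The lower call in NF1 was lost without NF1 1, NF1 3, LTR 3 or any 1 of the NSC libraries, and that in LTR without LTR 2, LTR 3, NSC 1 or NSC 3. The higher call in NF1 was lost without NF1 1, NF1 3, LTR 1, NSC 1 or NSC 5 and became 2 without NF1 2 or LTR 2, and in LTR there was 1 higher call without NF1 2 or LTR 2 and 2 without NSC 3.

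Genes reported to be regulated by HMGA proteins moved in both directions, with positive medians. The list was not split by the direction of that regulation, so nothing is read from the sign of its medians. Of 12 fitted, 4 rose and 2 fell in NF1 against NSC, and 5 rose and 1 fell in LTR against NSC, with medians of 0.73 and 0.87 against -0.062 to 0.0039 for all genes. Calls over all fitted genes were 10.1% higher and 13.1% lower in NF1, and 14.9% and 20.9% in LTR. Cdkn2a, which encodes p16 and ARF and is lowered by HMGA2 in mouse neural stem cells, rose to 272 ± 106 CPM in NF1 and 609 ± 296 in LTR, against 56.2 ± 3.25 in NSC (log2 fold changes 2.28 ± 0.38 and 3.44 ± 0.40, edgeR adjusted p = 0.00447 and 0.000984). Its neighbour Cdkn2b, the p15 gene, rose to 125 ± 33.4 CPM in NF1 and 176 ± 46.2 in LTR, against 45 ± 1.6 in NSC. Igfbp2, which encodes an insulin-like growth factor binding protein, fell to 142 ± 124 CPM in NF1 and 47.5 ± 25.8 in LTR, against 2183 ± 75.9 in NSC (-3.95 ± 0.67 and -5.52 ± 0.72, edgeR adjusted p = 0.00463 and 0.00133). Ccna2, a cyclin gene, had 276 ± 149 CPM in NF1, 327 ± 21.4 in LTR and 215 ± 42.3 in NSC and was not called. Without NSC 5 the number that fell in NF1 was 1, and without LTR 1 the number that fell in LTR was 2. With 1 library left out, 3 to 6 rose in NF1 and 4 to 7 in LTR.

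Among other high-mobility-group genes, Hmgn1 was called. Of 7 fitted, 0 were called by edgeR in NF1 against NSC, where 23.1% of all fitted genes were, and 1 rose and 0 fell in LTR against NSC, where 35.9% were called. Hmgn1, a nucleosome-binding protein gene, rose to 774 ± 140 CPM in LTR, against 370 ± 56.9 in NSC (log2 fold change 1.06 ± 0.36, edgeR adjusted p = 0.0455), and had 649 ± 326 CPM in NF1. That call was lost without any 1 of the LTR or NSC libraries or without NF1 1, and the number became 2 without NF1 2. In NF1 against NSC, 2 rose without NF1 2, and 1 fell without NSC 1 or NSC 5. In LTR against NSC, 1 fell without NF1 2 or NSC 1. Hmgb2, a paralogue of Hmgb1, had 353 ± 54.2 CPM in LTR and 142 ± 45.9 in NSC and was not called.

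Other fetal and pluripotency genes were split. Of 11 fitted, 3 rose and 4 fell in each comparison with NSC, with medians of -2.11 in NF1 and -0.97 in LTR. By comparison, 10.1% of all fitted genes rose and 13.1% fell in NF1, and 14.9% rose and 20.9% fell in LTR. The imprinted gene Mest fell to 133 ± 51.3 CPM in NF1 and 85.4 ± 20.2 in LTR, against 1217 ± 168 in NSC (log2 fold changes -3.19 ± 0.34 and -3.83 ± 0.35, edgeR adjusted p = 0.00100 and 0.000420). The imprinted gene Peg10 fell to 15.7 ± 2.70 CPM in NF1 and 26.6 ± 4.71 in LTR, against 161 ± 69.9 in NSC. H19, an imprinted noncoding RNA that IGF2BP1 binds, was chosen after its values were seen and fell to 0.496 CPM in NF1 and 0.457 in LTR, against 14.6 ± 9.81 in NSC. The imprinted gene Peg3 rose to 54.6 ± 18.6 CPM in NF1, against 24.2 ± 2.05 in NSC (log2 fold change 1.18 ± 0.30, edgeR adjusted p = 0.0234), and had 17.3 ± 5.31 CPM in LTR, where it was not called. Dlk1 had 0.388 ± 0.475 CPM in NF1 and 1.69 ± 0.469 in NSC and was not called. The number that rose in NF1 was 1 without NF1 1 or NSC 5 and 0 without NSC 1, and that in LTR was 1 without NSC 1.

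**Figure D4:**
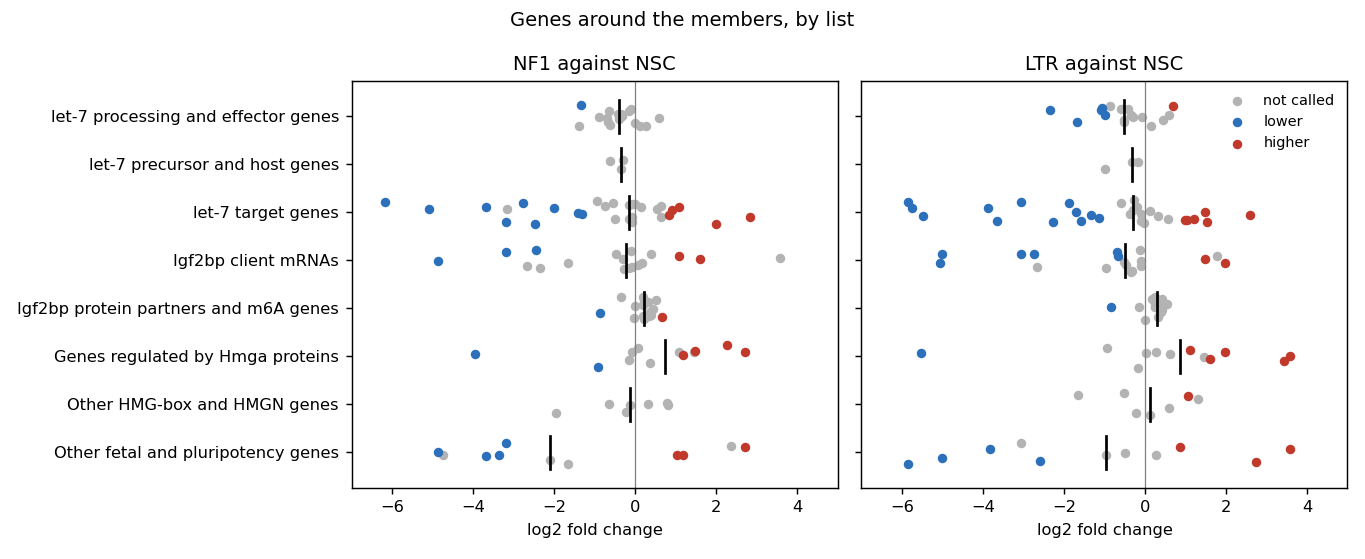
Log2 fold changes of the genes in the 8 lists. The horizontal axes are log2 fold changes of NF1 against NSC (left) and LTR against NSC (right), each point is 1 gene placed in the row of its list with random vertical offset, red and blue points passed the edgeR test as higher and lower, grey points did not, and black bars are list medians. Let-7 targets, IGF2BP clients and genes reported to be regulated by HMGA proteins lie on both sides of 0. The HMGA list, not split by direction of regulation, has its medians at 0.73 and 0.87.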

How the data were processed

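RNA was measured by sequencing in 9 cultures. The table that the authors deposited holds whole raw counts for each gene and library. The submitters' processing notes name GRCm38 (mm10), the aligner STAR 2.5.2a, the counter HTSeq, and DESeq2 1.8.2. The strand setting, annotation release and handling of multiply aligned reads are not given. Per the labels' protocols, total RNA went into libraries of the NEBNext Ultra RNA type. One model of 3 groups was fitted to the counts in R 4.3.3 with edgeR 4.0.16 (TMM, filterByExpr minimum count 10, quasi-likelihood F test, Benjamini-Hochberg adjustment), leaving 15696 of 47729 genes. The fit was also run on simulated data, with the same spread for every gene and no outlying library. That setting is simpler than these cultures, so nothing is read from it here. CPM use library totals times TMM factors. Coordinates, 3′ UTRs (like length: 0.8 to 1.25 times) and exon lengths come from GENCODE M21. The genes and lists were chosen with earlier results of these data known. Named list genes were, per list and comparison, up to 3 called genes with the smallest adjusted p and the most abundant gene not called. Likeness is Pearson r of log2 CPM (prior count 2), 3 genes with established symbols each. Libraries within a group differed beyond sampling noise (chi-square per degree of freedom 13.4 to 395), so none is a copy. Alternatives were DESeq2 1.42.0, limma-voom (3.58.1), other scalings and filters, fits of 6 libraries, a replicate block, each library left out, and NF1 2 and NSC 3 left out together. A few items that these rules name are not reported here.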

Additional observations from a re-analysis of the deposited data

How the results depend on the processing

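Among fitted values of the 7 genes against NSC, all alternatives kept the sign. The log2 fold change ranged from 1.28 to 1.71 for Igf2bp2 and 2.12 to 2.80 for Hmga2 in NF1, and from 1.19 to 1.61 and 2.03 to 2.75 in LTR. For Hmga1 it ranged from 0.60 to 1.86 in NF1 and 0.64 to 1.94 in LTR, and for Igf2bp3 from -5.90 to -3.41 in NF1 and 0.19 to 0.85 in LTR. Against LTR, the small NF1 differences of Igf2bp2 and Hmga2 changed sign in some alternatives.

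In NF1 against NSC the number of genes past the threshold was 3631, with 2103 under a filter of 10 CPM in 3 libraries, 1942 with the replicate block, 7485 without NF1 2 and NSC 3, and 1752 to 6900 with 1 library left out. In LTR against NSC it was 5634, with 3477 with the replicate block and 3281 to 8018 with 1 library or NF1 2 and NSC 3 left out. In NF1 against LTR it was 0 by edgeR, with 335 by DESeq2, 1 by limma-voom, 52 with no filter, 104 without NF1 2 and NSC 3, and 0 to 34 with 1 library left out. Of 105 fitted list genes, 30 passed in NF1 against NSC, with 57 without NF1 2 and NSC 3 and 21 to 52 with 1 library left out, and 42 passed in LTR against NSC, with 59 without NF1 2 and NSC 3 and 28 to 50 with 1 library left out. In NF1 against LTR 0 passed, with 4 by DESeq2, 1 with no filter and 1 without NF1 2 and NSC 3. The cause of these shifts was not tested.

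Some small differences that were not called changed sign. In LTR against NSC, Huwe1 reversed without LTR 2 (-0.48 to 0.23 with libraries left out) and Actb without NSC 3 (-0.14 to 0.046). In NF1 against LTR, Hmgn1 reversed without NF1 2, also with NSC 3 left out (-0.71 to 0.075), Huwe1 without NF1 3 (0.044) or LTR 1 (-0.56 to 0.15), and Khsrp without NF1 3 (-0.15 to 0.0012). Adjusted p ranged from 0.00168 to 0.0727 for Tnrc6b in NF1, 0.0102 to 0.145 for Ythdf3 in NF1, 0.00622 to 0.102 for Fto in NF1 and 0.00752 to 0.0831 in LTR, 0.00335 to 0.0715 for Ago1, 0.000161 to 0.0656 for Ago4 and 0.00270 to 0.135 for Hmgn1 in LTR.

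No pairing of the cultures by replicate number was seen. Deviations of same-numbered NF1 and LTR libraries correlated at 0.12, -0.029 and -0.18, and only NF1 1 correlated best with its own number. Against NSC 1 and NSC 3 the values were -0.076 and 0.038 for NF1, and 0.093 and -0.051 for LTR. With 3 libraries in a group these values cannot exclude a pairing. With the replicate block, Myc in NF1 against NSC had an edgeR adjusted p of 0.0561 (0.00101 to 0.0561 over all alternatives), and 25 list genes passed in NF1 and 28 in LTR against NSC. Another scaling moved the median of all genes by at most 0.056 (log2). Depth limits Igf2bp1, Lin28a and Lin28b, with at most 24 counts in a library.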
